A study of Drosophila melanogaster with 6 samples.

Results

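The mushroom body is a paired structure of the insect brain in which odors are linked to reward or punishment. Its intrinsic neurons, the Kenyon cells, arise from a small set of neuroblasts that depend on Pax6 transcription factors, and they send bundled axons held together by adhesion molecules into a set of lobes. Learning in Kenyon cells is known to run through cAMP: dopamine activates a receptor, an adenylyl cyclase makes cAMP, a phosphodiesterase breaks it down, and protein kinase A passes the signal on. A set of 9 genes that cover these steps was followed in the larval central nervous system (CNS) of *Drosophila melanogaster*: *ey*, *toy*, *dac*, *Fas2*, *trio*, *Dop1R1*, *rut*, *dnc* and *Pka-C1*. They were selected by gene name, and all 9 were found among the 13416 genes of the deposited comparison table.

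Bulk RNA sequencing compared 3 libraries of the w1118 control strain with 3 libraries of Alk-YS, each made from the pooled CNS of 40 to 45 larvae in the last larval instar, without treatment. Alk-YS is an allele edited at the endogenous locus with CRISPR/Cas9, that changes 1 kinase-domain tyrosine of the receptor tyrosine kinase Alk to serine, along with silent changes around it. The study treats it as a gain-of-function allele and used homozygotes. The embryos injected to make it came from a *w1118* strain that also carried a *vas*-Cas9 transgene and a *yellow* mutation. That strain is listed among the study's stocks as a wild-type control, and whether it or another *w1118* stock gave the control RNA is not given in the sources used here. The number of independent edited lines and the sex of the larvae are not given either. Alk is known to act in the mushroom body, and the comparison asks whether the RNA of mushroom body and learning genes differs in the mutant CNS.

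Each library held between 18770029 and 22333967 reads assigned to genes. The 9 genes had between 344 and 7887 reads per library. The labeled tissue showed its defining markers, with neuron markers summing to between 242.6 and 325.9 FPKM (fragments scaled to gene length and library depth) in control and between 233.8 and 260.2 FPKM in Alk-YS. Transcripts of other tissues were also present, and limma, run on the 9668 genes whose mean reached 10 normalized counts (reads divided by a size factor for the library), called lower levels in Alk-YS for 2 of 7 muscle markers (Mlc1 and Mlc2), 1 of 6 fat body markers (Fbp2) and 1 of 5 hemocyte markers (NimC1), where 1.71% of all genes tested were called lower. All 7 muscle, all 6 fat body and all 5 hemocyte markers had log2 fold changes below 0, with medians of -0.84, -2.63 and -0.36, and 6, 2 and 2 of them were at an unadjusted p under 0.05. DESeq2 on recovered reads called 5 of 7 muscle markers (Mhc, up and Act57B in addition), 1 of 6 fat body markers and 2 of 5 hemocyte markers (He in addition). The muscle markers summed to 66.3 to 84.9 FPKM in control and 36.2 to 50.4 FPKM in Alk-YS. The hemocyte markers summed to 99.7 to 170.7 FPKM in control and 62.3 to 97.7 FPKM in Alk-YS. The fat body sums varied widely and overlapped, at 239.8 to 2237 FPKM in control and 53.6 to 593.7 FPKM in Alk-YS. The part of these tissues in the values of the 9 genes was not tested. Leaving out single libraries ended the call of Mlc1 in 5 of 6 fits and of Fbp2 in 2 of 6. In limma, 0 of 5 ring gland markers passed, with 1 at an unadjusted p under 0.05 (nvd, called by DESeq2 with an adjusted p of 0.019), and 1 of 5 salivary gland markers passed (*Sgs4*, described with *dnc*). The receptor gene *Alk* itself had a log2 fold change of 0.05 (limma adjusted p of 0.921), and since the edit changes the coded residue, its level does not check the labels. In RNA of whole tissue, a change in the number of cells that express a gene cannot be told apart from a change in RNA per cell.

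None of the 9 genes passed a test for a difference between Alk-YS and control. In limma, fitted across all 9668 genes, 0 of 9 passed an adjusted p under 0.05, where 2.97% of all genes tested did (1.26% higher and 1.71% lower in Alk-YS). At an unadjusted p under 0.05, 0 of 9 passed in limma against 13.8% of all genes. On reads recovered from the deposited values, 0 of 9 passed either threshold with edgeR, against 2.7% of all genes adjusted and 14.1% unadjusted, and 0 of 9 with DESeq2, against 6.36% and 14.2%. The exact two-sided permutation p, which cannot go below 0.1 here, was 0.1 for *toy* and between 0.4 and 1.0 for the other 8 genes. The log2 fold changes lay between -0.19 (*dnc*) and 0.21 (*Dop1R1*), with 5 above and 4 below 0. Their median size without regard to sign was 0.084, against 0.135 over all genes tested. Of the 9 genes, 8 had mean levels above the median of all genes tested (675 normalized counts), and sizes were not compared at matched level. The 95% intervals of all 9 stayed within a 2-fold change in either direction, and those of 8 stayed within a 1.5-fold change, the exception being *Dop1R1*.

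**Figure D1:**
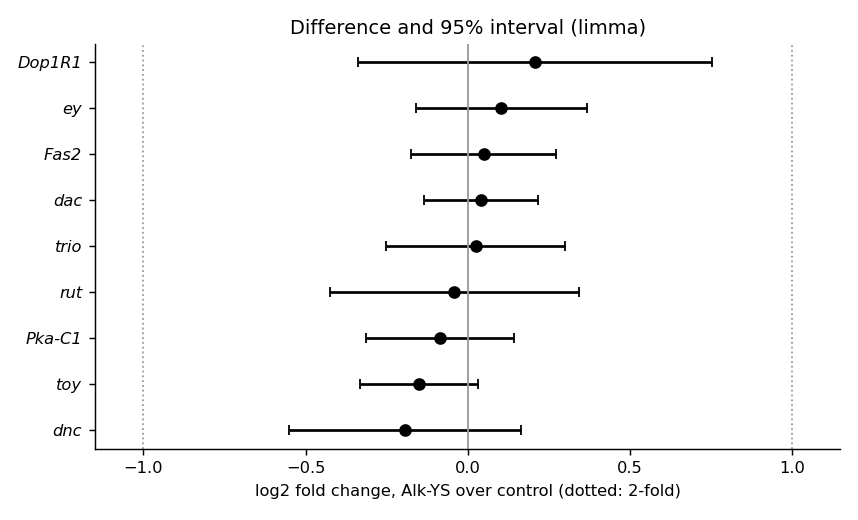
Log2 fold change of Alk-YS over control for each of the 9 genes (points) with its 95% interval from limma (bars, 3 libraries per group). All intervals include 0 and lie inside the dotted lines at a 2-fold change, and the widest is that of *Dop1R1*.

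Measured per gene length, the genes fell into tiers that were alike in both genotypes. *Pka-C1*, which encodes the main catalytic subunit of protein kinase A, had the highest level with a mean of 64.3 FPKM over the 6 libraries. It was followed by *toy* at 52.4 FPKM, *dac* at 44.3 FPKM and *Fas2* at 39.6 FPKM. A second tier held *trio* at 15.7 FPKM and *ey* at 15.1 FPKM, followed by *rut* at 7.83 FPKM and *dnc* at 7.07 FPKM. *Dop1R1* had the lowest level, with a mean of 1.75 FPKM, so that the highest and lowest members differed 36.8-fold. The ranges over the 6 libraries did not overlap between *Pka-C1* and *toy*, between *toy* and *dac*, between *Fas2* and *trio*, between *ey* and *rut*, or between *dnc* and *Dop1R1*. They overlapped for the neighbors *dac* and *Fas2* (in this order in 5 of 6 libraries), *trio* and *ey* (4 of 6) and *rut* and *dnc* (4 of 6), so these pairs had no fixed order. The gene length used equaled the union of all annotated exons for 8 of the 9 genes, so a gene with many alternative exons, such as *dnc* with 17 annotated transcripts, receives a lower FPKM than its main transcript alone would give.

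**Figure D2:**
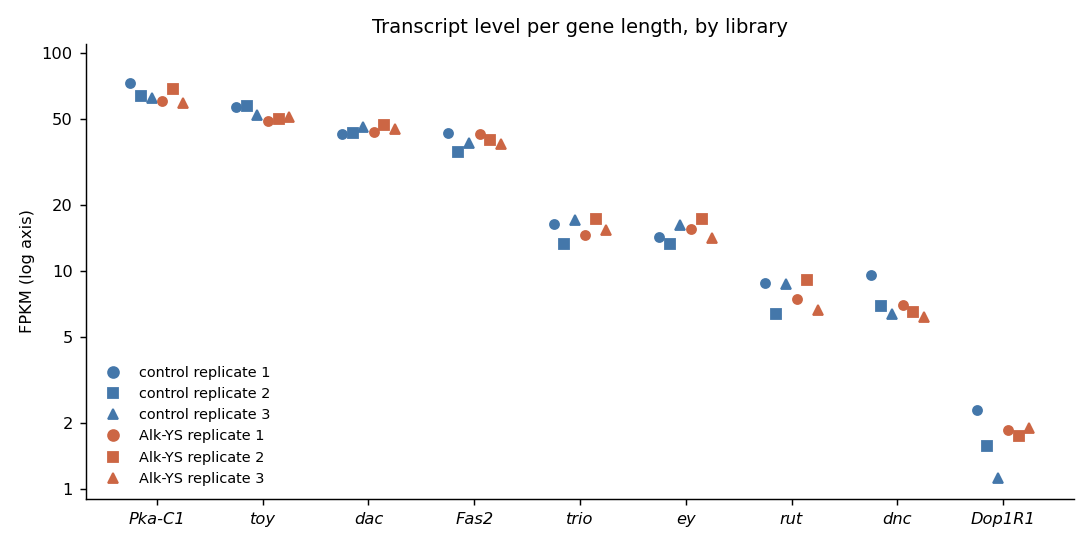
FPKM of each gene in each of the 6 libraries on a log axis (blue, control, and orange, Alk-YS; symbols mark the replicate), ordered by mean level. Levels run from about 64.3 FPKM for *Pka-C1* to 1.75 FPKM for *Dop1R1*, and the genotypes overlap for all genes except *toy*.

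The first functional group was the transcription factors that shape the Kenyon cell lineage, *ey*, *toy* and *dac*. *ey* (eyeless, FBgn0005558, chromosome 4, 697689 to 721173, plus strand, BDGP6) encodes one of the fly's Pax6 proteins, which act at the top of the eye determination network and are also needed for mushroom body development. Its normalized counts were 1108, 1027 and 1251 in control replicates 1 to 3 and 1204, 1334 and 1100.3 in Alk-YS replicates 1 to 3. The groups overlapped, since Alk-YS replicate 3 lay below 2 of the control libraries. The means were 1129 ± 113 in control and 1213 ± 117 in Alk-YS (SD, n = 3 each), a log2 fold change of 0.10 with a standard error of 0.11 and a limma adjusted p of 0.799.

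*toy* (twin of eyeless, FBgn0019650, chromosome 4, 989725 to 1007922, plus strand) encodes the other Pax6 protein, which acts upstream of *ey* in the eye determination network. It had 4607, 4669 and 4213 normalized counts in control replicates 1 to 3 and 3965, 4058 and 4122 in Alk-YS replicates 1 to 3. All 3 Alk-YS libraries lay below all 3 control libraries, and *toy* was the single gene of the 9 whose groups did not overlap. Groups did not overlap for 19.5% of all genes tested, 10.1% with Alk-YS lower, so 1 of 9 is near the background. The means were 4497 ± 248 and 4048 ± 79.2 (SD, n = 3 each). The log2 fold change was -0.15 with a standard error of 0.08, or 0.90-fold with a 95% interval from 0.79 to 1.02. The unadjusted p in limma was 0.092 and the adjusted p 0.481, so the difference did not pass. An INE-1 element on the opposite strand shares 3.55% of its exonic bases.

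The tested genes with the profile most like that of *toy* over the 6 libraries, by the root mean square distance of their centered log2 values, were *Lamp1* (0.022), *CG17912* (0.026) and *CG14005* (0.026). They are given as a description of likeness only.

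*dac* (dachshund, FBgn0005677, chromosome 2L, 16466512 to 16485998, minus strand) encodes a nuclear factor that works with the eye determination genes and is expressed in Kenyon cells. It was the steadiest of the set, at 4417, 4449 and 4714 normalized counts in control and 4509, 4812 and 4649 in Alk-YS. Its groups overlapped, and the means of 4527 ± 163 and 4656.5 ± 152 (SD, n = 3 each) gave a log2 fold change of 0.04 with a standard error of 0.08 and a limma adjusted p of 0.895. The 95% interval of *dac* ran from 0.91-fold to 1.16-fold.

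Since *ey* and *toy* both encode Pax6 proteins, their ratio within each library was compared, a quantity that does not depend on how libraries are scaled. The log2 ratio of *ey* to *toy* in normalized counts was -2.05, -2.18 and -1.75 in control and -1.72, -1.60 and -1.90 in Alk-YS. The mean was -2.00 ± 0.22 in control and -1.74 ± 0.15 in Alk-YS (SD, n = 3 each), a difference of 0.25. The groups overlapped. A two-sided exact permutation test gave p = 0.2, or 0.4 after Benjamini-Hochberg adjustment over the 2 ratios tested.

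*ey*, *toy* and *dac* are also used in the eye imaginal disc and the optic lobe, so their bulk level is not a measure of Kenyon cells alone. All 9 eye disc markers on the list were detected (some, such as *ato* and *gl*, are also expressed in the brain). Their summed level was 60.8 to 71.8 FPKM in control and 62.3 to 71.9 FPKM in Alk-YS, and 0 of 9 passed in limma, with 0 of 9 at an unadjusted p under 0.05. The part of eye tissue in the levels of *ey*, *toy* and *dac* was not tested. None of 9 other genes of the retinal determination network passed in limma. Only *toe*, a Pax gene related to *eyg*, reached an unadjusted p under 0.05, with a log2 fold change of 0.47 (adjusted p of 0.169). The median log2 fold change of this list was 0.18, against 0.0078 over all genes tested.

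The second group was the adhesion molecule *Fas2* and the guanine nucleotide exchange factor *trio*. *Fas2* (Fasciclin 2, FBgn0000635, chromosome X, 4132887 to 4206093, minus strand) encodes an immunoglobulin-domain adhesion molecule that marks the α, β and γ lobes. Its normalized counts were 6497, 5344 and 5894 in control and 6463, 6039 and 5809 in Alk-YS. The highest and the lowest library were both controls, and the log2 fold change was 0.05 with a standard error of 0.10 (limma adjusted p of 0.904). *trio* (FBgn0024277, chromosome 3L, 995982 to 1034875, minus strand) encodes a RhoGEF that activates Rac proteins in growing axons. In the adult mushroom body, the study reported more cell bodies with cytoplasmic Trio protein in the mutant. The values here are RNA of the whole larval CNS. *trio* had 3804, 3084 and 3996 normalized counts in control and 3411, 4029 and 3598 in Alk-YS. The groups overlapped widely, with means of 3628 ± 481 and 3679 ± 317 (SD, n = 3 each). The log2 fold change of *trio* was 0.03 with a standard error of 0.12 and a limma adjusted p of 0.964, and the 95% interval ran from 0.84-fold to 1.23-fold. Of its exonic bases, 1.59% are shared with *CG9205* on the opposite strand, which is well expressed, and strand use in counting is not given in the sources used here.

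The genes around *trio* included differences that passed. Of 9 partners on the list, 2 were lower in Alk-YS in limma, *Rac2* and *dock*, and 0 were higher. Of all genes tested, 1.71% were called lower and 1.26% higher. Over all 10 lists of related genes, 3 of 98 tested genes passed, or 3.06% against 2.97% of all genes tested. *Rac2* (FBgn0014011, chromosome 3L, 7432762 to 7435190) encodes one of the Rac GTPases on which Trio acts. It had 1322, 1420.1 and 1543 normalized counts in control and 814, 823 and 868 in Alk-YS. Every Alk-YS library was below every control library, and the level was 0.59-fold that of control (95% interval 0.50 to 0.68, limma adjusted p of 0.0063). The *Rac2* call held in all 6 fits that each left out a library and in all other alternatives tried. *Rac1*, its close paralog and the more abundant gene per length (137 FPKM against 22.4 FPKM), had a log2 fold change of 0.03 with a 95% interval from -0.14 to 0.20 (adjusted p of 0.922). Because the pair is similar in sequence, reads could be divided between them, and the values of *Rac2* carry that uncertainty.

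*dock* (FBgn0010583, chromosome 2L, 825969 to 833241) encodes an SH2/SH3 adaptor that links guidance receptors to Pak kinase. Its normalized counts were 5759, 4596 and 4654 in control and 2998, 3612 and 2928 in Alk-YS, again without overlap. The level was 0.64-fold that of control (95% interval 0.52 to 0.78, limma adjusted p of 0.034). The *dock* call was lost without control replicate 1, control replicate 2, Alk-YS replicate 1 or Alk-YS replicate 3 (log2 fold changes between -0.71 and -0.55, adjusted p between 0.083 and 0.15) and without a mean-variance trend (adjusted p of 0.089). *Abl*, *ena*, *fra*, *Lar*, *Mtl* and *Pak* had log2 fold changes between -0.092 and 0.16, and the list's median was 0.0089. Among 10 adhesion molecules, 0 passed in limma or at an unadjusted p under 0.05, with *Con* at -0.26 and *Fas3* at -0.18 on the log2 fold change scale and a median of -0.018.

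**Figure D3:**
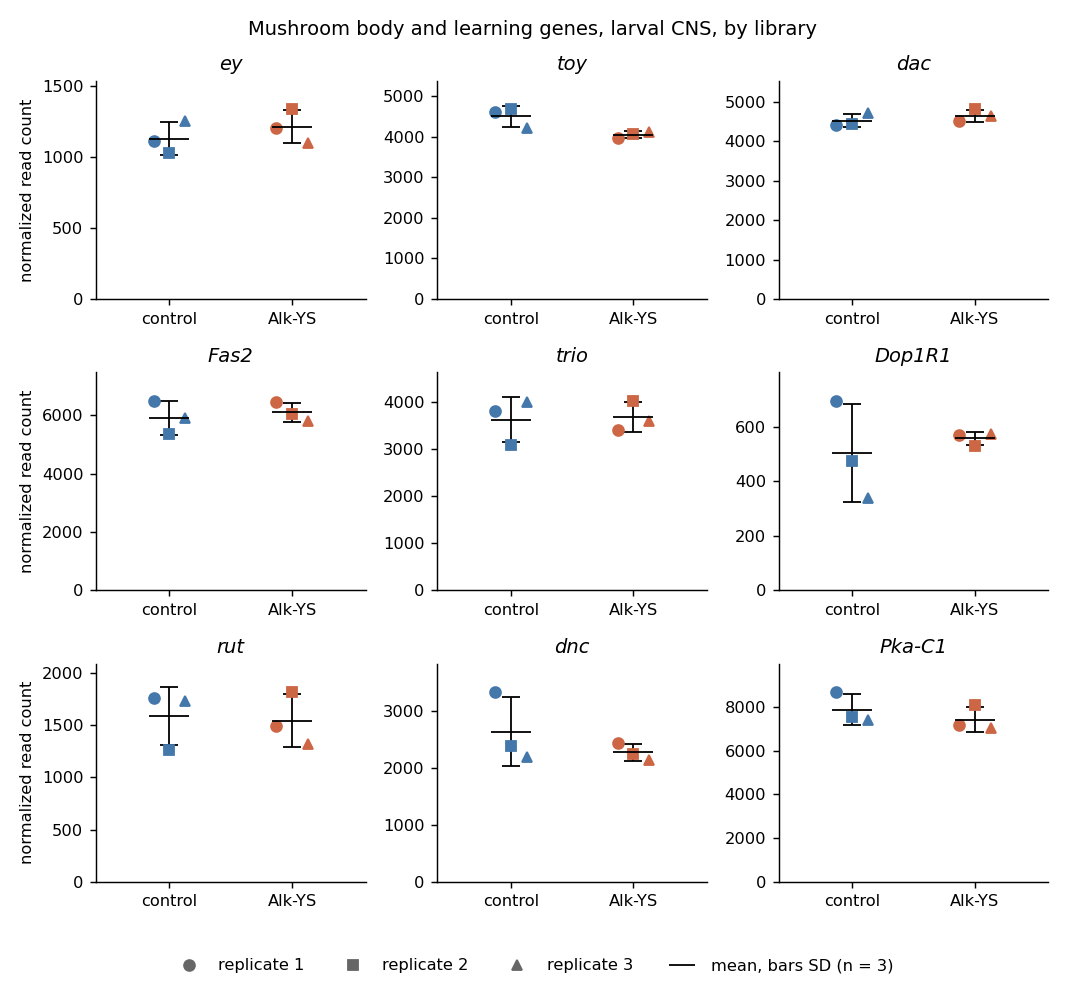
Normalized read counts of the 9 genes in each library, on axes that start at 0 (symbols mark the replicate, black bars the mean and SD, n = 3). Only the *toy* groups do not overlap, and the control libraries of *Dop1R1* and *dnc* are spread more widely than the Alk-YS libraries.

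The third group followed the cAMP signal, beginning at the receptor. *Dop1R1* (FBgn0011582, chromosome 3R, 14165379 to 14214810, minus strand) encodes a D1-like dopamine receptor required in the mushroom body for olfactory learning. Its normalized counts were 694, 474 and 339 in control and 568, 527 and 574 in Alk-YS. Control spanned a 2.05-fold range and enclosed all 3 Alk-YS libraries, which spanned a 1.09-fold range. The means were 502 ± 179.6 and 556 ± 25.3 (SD, n = 3 each), and the log2 fold change of 0.21 had a standard error of 0.24 and a limma adjusted p of 0.807. Control libraries decided this value. Leaving out control replicate 3 turned it to -0.045, and leaving out control replicate 1 raised it to 0.47, with an adjusted p of at least 0.321 in every alternative. Of 14 other monoamine and muscarinic receptors, 0 passed in limma. The octopamine receptor *Oamb* was the single one at an unadjusted p under 0.05 (log2 fold change 0.48, adjusted p of 0.251), beside *5-HT1A* at -0.28 (adjusted p of 0.581). The other dopamine receptors had log2 fold changes of 0.11 (*Dop1R2*), -0.057 (*Dop2R*) and 0.053 (*DopEcR*). Of 5 genes for dopamine synthesis and transport, 0 passed in limma, and 2 were at an unadjusted p under 0.05, *Ddc* (log2 fold change 0.49, adjusted p of 0.285) and *DAT* (0.56, adjusted p of 0.344).

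*rut* (rutabaga, FBgn0003301, chromosome X, 14787478 to 14826073, minus strand) encodes the calcium-responsive adenylyl cyclase known from learning mutants. It had 1764, 1266 and 1736 normalized counts in control and 1490.0, 1817 and 1316 in Alk-YS. Both groups covered nearly the same range, with means of 1589 ± 279.8 and 1541 ± 254 (SD, n = 3 each), a log2 fold change of -0.041 with a standard error of 0.17 and a limma adjusted p of 0.959. The *lncRNA:CR45522* gene on the opposite strand shares 4.37% of the exonic bases of *rut* and had a mean of 1.75 normalized counts. The list for cAMP production held 8 other tested genes, of which 4 encode cyclases. In limma 0 of 8 passed, with log2 fold changes from -0.45 to -0.00097 and a median of -0.052. An unadjusted p under 0.05 was found for the cyclases *Ac3* (log2 fold change -0.26, adjusted p of 0.272) and *Ac76E* (-0.45, adjusted p of 0.272). The G-protein subunits *Galphas*, *Gbeta13F* and *Ggamma1* were between -0.031 and -0.017 on the same scale, and *amn* was under the minimum level.

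*dnc* (dunce, FBgn0000479, chromosome X, 3176440 to 3343767, plus strand) encodes the cAMP phosphodiesterase whose mutants were isolated for poor olfactory memory. Its normalized counts were 3326, 2385 and 2191 in control and 2426, 2244 and 2136 in Alk-YS. Control replicate 1 stood above the other 5 libraries, which lay close together. The log2 fold change of *dnc* was -0.19 with a standard error of 0.15 and a limma adjusted p of 0.692. Without control replicate 1 it was -0.013. The *dnc* gene spans 167 kb and holds *Sgs4*, a salivary gland glue gene, within its interval without a shared exonic base. *Sgs4* had 226, 539 and 94.5 normalized counts in control and 27.7, 12.8 and 41.9 in Alk-YS (log2 fold change -3.14, limma adjusted p of 0.048). *Sgs4* no longer passed in 10 of 18 alternatives, among them edgeR (adjusted p of 0.057) and 5 of the 6 fits with a library left out, all but that without control replicate 3 (log2 fold changes over the 6 from -3.77 to -2.52).

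The RNA of *dnc* was set against that of *rut* as their log2 ratio within each library, with other phosphodiesterase and cyclase genes left out. Normalized counts were used, which are not divided by gene length. The sign of the ratio therefore does not show which gene was higher per length. The ratio was 0.91, 0.91 and 0.34 in control and 0.70, 0.30 and 0.70 in Alk-YS. The means of 0.72 ± 0.33 and 0.57 ± 0.23 (SD, n = 3 each) differed by -0.15, with overlapping groups and a p of 0.5 in a two-sided exact permutation test (0.5 after adjustment over the 2 ratios).

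Of 5 other phosphodiesterase genes, *Pde11*, whose product breaks down cAMP and cGMP, was higher in Alk-YS and the other 4 did not pass. In limma, 1.26% of all genes tested were called higher in Alk-YS. *Pde11* (FBgn0085370, chromosome 2L, 18532025 to 18590342) had 656, 714 and 684 normalized counts in control and 1035, 1043 and 987 in Alk-YS. Every Alk-YS library was above every control library, with a level 1.49-fold that of control (95% interval 1.29 to 1.72, limma adjusted p of 0.016). *Pde11* no longer passed on leaving out any library but control replicate 3 (log2 fold changes between 0.55 and 0.61, adjusted p between 0.055 and 0.083). On the FPKM table it had an adjusted p of 0.054. *Pde8* had a log2 fold change of -0.36 (adjusted p of 0.544).

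*Pka-C1* (FBgn0000273, chromosome 2L, 9682315 to 9699297, minus strand) closes the chain. It had 8679, 7531 and 7423 normalized counts in control and 7154, 8098 and 7028 in Alk-YS, so the groups overlapped. The log2 fold change was -0.084 with a standard error of 0.10 and a limma adjusted p of 0.815, and the 95% interval ran from 0.81-fold to 1.11-fold. Of 7 tested genes for other kinase subunits, anchoring proteins and CREB factors, 0 passed in limma or at an unadjusted p under 0.05. The regulatory subunit gene *Pka-R1* was at -0.25 (adjusted p of 0.392) and the anchoring protein gene *Akap200* at 0.13 (adjusted p of 0.688) on the log2 fold change scale, and *Pka-C2* was under the minimum level.

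**Figure D4:**
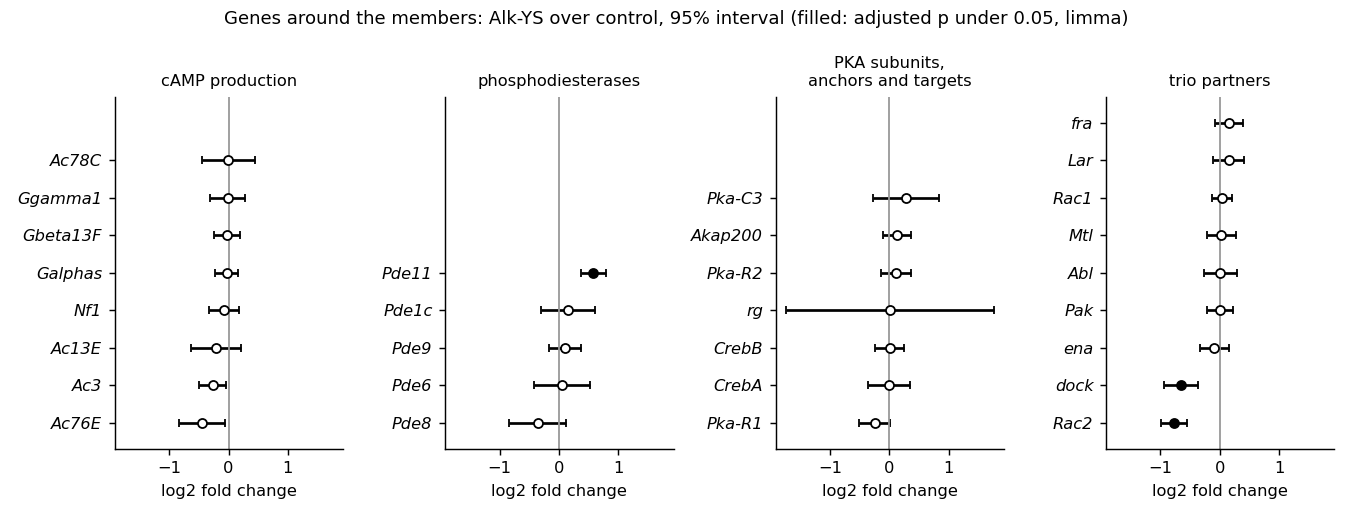
Log2 fold change of Alk-YS over control with 95% intervals from limma for genes of cAMP production, phosphodiesterases, protein kinase A and the partners of *trio* (filled points, adjusted p under 0.05 over all genes). *Pde11* is the single filled point above 0, at 0.58, and *dock* and *Rac2* are the filled points below 0, at -0.65 and -0.77.

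Other genes linked to Kenyon cell identity, not all of them regulators, were set beside the 9 genes. Of 17 on the list, 0 passed in limma and 4 were at an unadjusted p under 0.05 (*chinmo*, *prt*, *Rx* and *sNPF*), with a median log2 fold change of 0.022. *mamo*, which specifies α′β′ neurons, had a log2 fold change of 0.03 with a 95% interval from 0.77-fold to 1.35-fold, and *EcR*, whose B1 isoform marks γ neurons, had -0.060 with an interval from 0.81-fold to 1.14-fold. Isoforms cannot be separated in these gene-level values. For mutant larvae, the study reported higher *mamo* RNA in a subcluster of its single-cell data. It also reported Mamo protein in EcR-B1-positive γ neurons. The bulk values here cover the whole larval CNS, so they do not measure *mamo* in those cells. *chinmo*, a temporal factor of early-born neurons, had a log2 fold change of -0.36 (adjusted p of 0.297) and the homeobox gene *Rx* one of 0.45 (adjusted p of 0.272). Of 14 other learning genes, 0 passed, and 1 was at an unadjusted p under 0.05, *orb2*, an RNA-binding protein gene of long-term memory (log2 fold change -0.39, adjusted p of 0.341), while *Adf1* was at 0.16 (adjusted p of 0.404). Over the 10 lists of related genes together, 3 of 98 tested genes passed, which is 3.06% against 2.97% of all genes tested, and 14.3% had an unadjusted p under 0.05 against 13.8%.

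On the log2 scale, the genes varied more between control libraries than between Alk-YS libraries, by unequal amounts. The SD of log2 values was larger in control for 9 of 9 genes, and it was larger in control for 65.5% of all genes tested. It was close for *ey* (0.143 in control, 0.139 in Alk-YS), *dac* (0.051, 0.047) and *Pka-C1* (0.125, 0.111). The SDs lay far apart for *Dop1R1* (0.52, 0.066) and *dnc* (0.32, 0.093). *Fas2*, *dnc*, *Dop1R1* and *Pka-C1* were highest in control replicate 1, where 7 of 9 genes lay above their own mean over the 6 libraries. *ey*, *Fas2*, *trio* and *rut* were lowest in control replicate 2, where 8 of 9 lay below it. The median deviation of the 9 genes from their own means was 0.12 in control replicate 1 and -0.13 in control replicate 2 on the log2 scale, while that of all genes tested lay between -0.0021 and 0.0017. Neuron markers moved with the first of these: they summed to 325.9 FPKM in control replicate 1 and to between 233.8 and 260.2 FPKM in the other 5 libraries. Between the genotypes, the median over the 7 neuron markers was -0.25 on the log2 fold change scale, and -0.31 to -0.097 on leaving out libraries. In limma, 0 of 7 were called and 1 was at an unadjusted p under 0.05 (*brp*, log2 fold change -0.29, adjusted p of 0.291), beside *nSyb* at -0.25. *elav* was the 1 marker above 0, at 0.0033 (limma adjusted p of 0.994). By staining, the study reported more Elav-positive neurons in the central brain of mutant larvae. The 5 neuroblast markers were all positive, with a median of 0.49, with 0 called in limma and 5 at an unadjusted p under 0.05, led by *insc* (0.86, adjusted p of 0.070) and *wor* (0.49, adjusted p of 0.129). Their summed level was 86.5 to 124.4 FPKM in control and 124.35 to 160.8 FPKM in Alk-YS. DESeq2 on recovered reads called *insc* and *wor* (adjusted p of 0.0025 and 0.026). By staining, the study found similar numbers of neuroblasts in mutant and control larval brains. Its single-cell data held more mutant cells in a cluster enriched for neuroblasts, while *mira*-positive neuroblasts were similar in number. The 5 glia markers had a median of -0.022, with 0 called in limma and 1 at an unadjusted p under 0.05, and summed to 188.9 to 216.6 FPKM in control and 197.3 to 247.1 FPKM in Alk-YS. The part of these cell types in the values of the 9 genes was not tested.

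**Figure D5:**
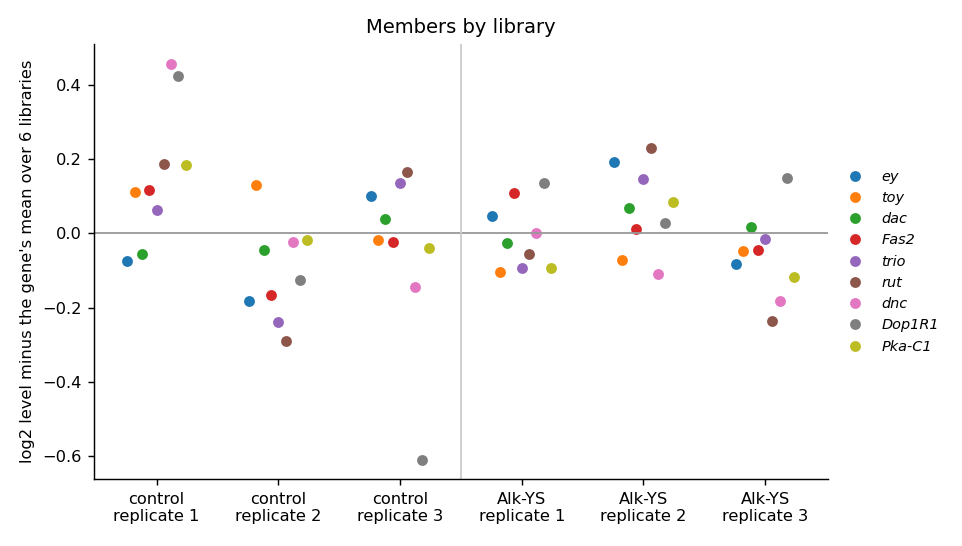
Log2 level of each of the 9 genes in each library minus the gene's mean over the 6 libraries (1 color per gene, control left and Alk-YS right of the line). In control replicate 1, 7 of 9 genes lie above 0, in control replicate 2, 8 of 9 lie below it, and the lowest point is *Dop1R1* in control replicate 3.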

How the data were processed

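The authors aligned paired-end Illumina reads to the Ensembl BDGP6 assembly with HISAT2 2.0.5, and the submitters' processing notes also name featureCounts 1.5.0-p3 and DESeq2 1.20.0. The annotation release and strand setting are not given in the sources used here. The signal values deposited per gene are read counts divided by a size factor per library. A second deposited table holds FPKM for 17558 genes. A further 3 columns with the authors' own test results (fold change and p-values) were not used. All values (100% in each library, within 0.0001) were whole multiples of the library's smallest value above 0, so whole reads could be recovered. edgeR called 261 genes on these reads. For control replicate 2, whose step is close to 1, this rests on the multiples alone. Replicates differed by more than sampling noise (chi-square per gene between 12.8 and 95.1).

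Genes with a mean of at least 10 were tested on log2(normalized count + 1), a scale that understates changes of low genes, with limma 3.58.1 (mean-variance trend, two-sided, Benjamini-Hochberg) in R 4.3.3. In all, 287 genes passed. Ratios received exact permutation tests, with 0.1 the smallest p possible. The genes and lists were chosen with earlier results of these data known. Named by rule were the 9 genes, list genes that passed, up to 2 per list with the lowest p, *mamo*, *EcR*, *Alk* and *jeb*. Some other list genes are named to describe a list. Of 165 list entries in 20 lists, 163 were found. Of the gene IDs, 98.2% were in the annotation supplied, which gave all 9 genes the same coordinates. Alternatives were recovered reads in edgeR 4.0.16 or DESeq2 1.42.0, scaling by TMM or upper quartile, a pseudocount of 0.1 or 5, a minimum mean of 50 or none, no trend, a replicate block, FPKM, an adjusted p under 0.01, and leaving out each library. The fits were tested on simulated data. No sequences are shown.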

Additional observations from a re-analysis of the deposited data

How the results depend on the processing

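None of the 9 genes passed in any of the 18 alternatives (lowest adjusted p 0.213, for *toy*). *ey*, *toy*, *dac*, *dnc* and *Pka-C1* kept their sign in all 18. Signs turned when single libraries were left out, where log2 fold changes ran from -0.021 to 0.12 for *Fas2*, -0.087 to 0.0996 for *trio*, -0.20 to 0.067 for *rut*, -0.045 to 0.47 for *Dop1R1*, -0.16 to 0.019 for *EcR*, -0.20 to 0.23 for *jeb*, -0.053 to 0.19 for *Alk* and -0.12 to 0.22 for *mamo*. The log2 fold change of mamo was also below 0 with edgeR (-0.0070). The median of the 9 genes ran from -0.087 to 0.043 on leaving out libraries, the former without control replicate 2. The *dnc* to *rut* difference ran from -0.35 to -0.021 and the *ey* to *toy* difference from 0.16 to 0.38. The count of genes that passed for Alk-YS against control across all genes, 287, was 612 with DESeq2, 84 at an adjusted p under 0.01 by construction, and between 105 (without control replicate 2) and 336 (without control replicate 3) on leaving out libraries, with 107 without control replicate 1, and 125, 190 and 119 without Alk-YS replicates 1, 2 and 3. Fits without a library hold fewer samples, and the cause of the larger DESeq2 count was not tested. Deviations from the group means correlated at -0.12, 0.35 and 0.41 between libraries with replicate numbers 1, 2 and 3. Pairs with different numbers ran from -0.48 (control replicate 3 with Alk-YS replicate 2) to 0.32 (control replicate 1 with Alk-YS replicate 2). Since not every same-number pair was above 0.1 and no label ties the numbers together, the libraries were not treated as paired. With the replicate block 284 genes passed, and *Pde11* had an adjusted p of 0.061 against 0.016 without it. The block left the ratio differences at -0.15 and 0.25. Leaving out a library leaves 2 against 3.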
